A study of Mus musculus with 24 samples.

Results

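The genes described here are 7 genes of MHC class II antigen presentation: H2-Aa, H2-Ab1, H2-Eb1, H2-DMa, H2-DMb1, Cd74 and Ciita. They were taken by gene name from a table of 56691 genes, and 34471 of these were counted in 1 library or more. All 7 had counts in every library and passed the filter on low counts in all 15 comparisons. RNA came from the distal jejunum, the last stretch of the middle small intestine, of 24 mice, with 1 bulk poly(A) RNA-seq library per mouse and 3 mice in each of 8 groups. The groups crossed sex, genotype and drinking water. Genotype was wild type or Ptk6-/-, a germline disruption of the gene for the intracellular tyrosine kinase PTK6 in every cell of the animal, so an effect of the loss cannot be placed in a cell type. Water was regular water in the controls and 100 mM succinate for 7 days in the treated mice. Both genotypes came from a single C57BL/6-backcrossed colony but from different litters, and the mice were 9 to 11 weeks old at the end. Succinate is a metabolite that tuft cells of the small intestine sense, which sets off a type 2 immune response, and the design asks how this response differs by sex and by Ptk6.

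MHC class II molecules carry peptides of ingested or engulfed proteins to the cell surface, where CD4+ T cells read them. H2-Aa and H2-Ab1 encode the alpha and beta chains of the I-A molecule, and H2-Eb1 encodes the beta chain of I-E. Cd74, the invariant chain, escorts newly made class II molecules and blocks their groove, and the H2-DM heterodimer, encoded by H2-DMa and H2-DMb1, exchanges the remnant of Cd74 for peptide. Ciita is the coactivator that does not bind DNA itself but is recruited by RFX, CREB and NF-Y proteins at the X and Y boxes of class II promoters. Dendritic cells, B cells and macrophages express these genes constitutively, and enterocytes of the small intestine do so too, more so under interferon gamma.

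Of the 7 genes, 4 had an entry in the part of the RefSeq promoter table of GRCm38.p6 that was read. This mouse build is older than that of the deposited positions. Cd74 lay outside the part that was read, so whether the table holds an entry for it was not examined. The promoters of 3 genes are shown because they hold the X and Y boxes through which Ciita acts. Each runs 5′ to 3′ over the 150 bases before the annotated start, and capitals mark the letters searched for on both strands: AACTGATGATGCT, the longest run shared by H2-Eb1 and H2-DMb1, for the X and X2 boxes, TGACGTCA for the X2 box of H2-Aa, and TGATTGG for the Y box. The letters were chosen after these promoters were read. H2-Aa lies on the minus strand at chr17:34287824-34287973, H2-Eb1 on the plus strand at chr17:34305717-34305866, and H2-DMb1 on the plus strand at chr17:34153041-34153190.
H2-Aa: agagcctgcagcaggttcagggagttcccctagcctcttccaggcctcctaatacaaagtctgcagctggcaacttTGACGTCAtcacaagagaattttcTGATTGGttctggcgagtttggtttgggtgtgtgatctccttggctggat
H2-Eb1: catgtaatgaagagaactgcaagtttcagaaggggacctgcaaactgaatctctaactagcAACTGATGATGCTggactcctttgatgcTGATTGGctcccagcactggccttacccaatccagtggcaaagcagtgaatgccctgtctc
H2-DMb1: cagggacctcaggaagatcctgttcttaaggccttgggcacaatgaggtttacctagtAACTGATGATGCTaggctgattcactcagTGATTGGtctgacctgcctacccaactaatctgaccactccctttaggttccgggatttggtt
The marked blocks were 16 bases apart in H2-Aa and H2-DMb1 and 15 bases apart in H2-Eb1. Among 32851 promoter entries of the table, 0.00609% held the X letters, which are 2 entries, H2-Eb1 and H2-DMb1 themselves, and both also held TGATTGG. TGACGTCA was in 1.36% of entries and TGATTGG in 5.71%, the latter also in the other class II genes H2-DMb2, H2-Eb2, H2-Oa and H2-Ob. The promoter of H2-DMa had no match to any of these letters in this window. A match describes the letters and does not show binding.

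In the deposited tables, on GRCm39, 5 of the 7 genes lie in the MHC on chromosome 17: H2-DMa (ENSMUSG00000037649, chr17:34338515-34358075, plus strand), H2-DMb1 (ENSMUSG00000079547, chr17:34372046-34379204, plus), H2-Ab1 (ENSMUSG00000073421, chr17:34476663-34488393, plus), H2-Aa (ENSMUSG00000036594, chr17:34501718-34506797, minus) and H2-Eb1 (ENSMUSG00000060586, chr17:34524841-34535648, plus). Cd74 (ENSMUSG00000024610) lies at chr18:60936920-60945718 and Ciita (ENSMUSG00000022504) at chr16:10297923-10344290, both on the plus strand. H2-DMb1 and H2-DMb2 are near-identical copies, so how reads were divided between them is uncertain.

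Libraries held 8080321 to 52824743 counts, and Ptk6 had 284 to 2405 counts in wild-type and 7 to 61 counts in Ptk6-/- libraries. Epithelial markers were detected in full in every library, 10 of 10. Several libraries stood apart. Male wild-type control 1 and succinate-treated male Ptk6-/- 1, the smallest library, had 51.2% and 29.7% of their counts on the ribosomal RNA gene Rn18s, against 0.108% to 4.49% in the others. Succinate-treated female wild type 2 carried heart muscle transcripts at 20573 CPM in sum, against 16.0 to 233 CPM elsewhere, and Y-linked transcripts at 74.2 CPM, a level that goes against its female label (0 to 0.971 CPM in the other female libraries). Lung transcripts differed among female libraries, with 8 of 8 markers detected and 16.7 to 22.6 CPM in sum in Ptk6-/- controls, 7 to 8 of 8 and 11.1 to 15.7 CPM in treated Ptk6-/- mice, and 2 to 3 of 8 and 5.81 to 7.45 CPM in wild-type controls. Of treated wild-type females, library 3 had 8 of 8 and 21.7 CPM. The part of lung transcripts in the results was not tested. Levels below are CPM, counts scaled to the library size adjusted by trimmed mean of M-values, unless given as FPKM, the deposited values that are also scaled to transcript length and allow comparison between genes. As these are bulk samples, fewer cells that express a gene and less of its RNA per cell cannot be told apart.

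Per length, the 7 transcripts kept the same order in 24 of 24 libraries. The median FPKM was 1104 for Cd74, 260 for H2-Ab1, 144 for H2-Eb1, 109 for H2-Aa, 40.7 for H2-DMb1, 18.8 for H2-DMa and 1.58 for Ciita. The escort Cd74 was thus the most abundant message, the I-A and I-E chains followed, and the H2-DM chains were lower. Within a library Cd74 stood a median of 4.01 times above H2-Ab1, H2-Ab1 1.80 times above H2-Eb1, and H2-Eb1 1.43 times above H2-Aa. H2-Aa stood 2.68 times above H2-DMb1, H2-DMb1 2.27 times above H2-DMa, and H2-DMa 11.8 times above Ciita. Across libraries, however, the FPKM ranges of all neighbours in this order overlapped, apart from those of H2-DMa (10.7 to 43.7) and Ciita (0.519 to 4.56). The closest neighbours in any library were H2-DMb1 and H2-DMa, with a smallest ratio of 1.01.

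In CPM, each gene varied 5.88-fold (H2-Eb1) to 8.19-fold (H2-Aa) between its lowest and highest library. By mean CPM, succinate-treated female Ptk6-/- mice were the lowest group for all 7 genes. The highest group was the female wild-type controls for H2-Aa, H2-Ab1, H2-Eb1 and H2-DMb1, the female Ptk6-/- controls for H2-DMa, the succinate-treated male Ptk6-/- mice for Cd74 and the male Ptk6-/- controls for Ciita. The order by mean rested in part on single libraries. By median CPM the highest group was the female wild-type controls for H2-Aa, H2-Eb1 and H2-DMb1, the succinate-treated male wild-type mice for H2-Ab1, H2-DMa and Cd74, and the male Ptk6-/- controls for Ciita, and succinate-treated female Ptk6-/- mice were lowest for H2-Aa, H2-Ab1 and H2-Eb1. Female Ptk6-/- control 3 was the highest of all libraries for H2-Aa, H2-Ab1, H2-Eb1, H2-DMa and H2-DMb1, and succinate-treated female Ptk6-/- 3 was the lowest for these and for Cd74.

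**Figure D1:**
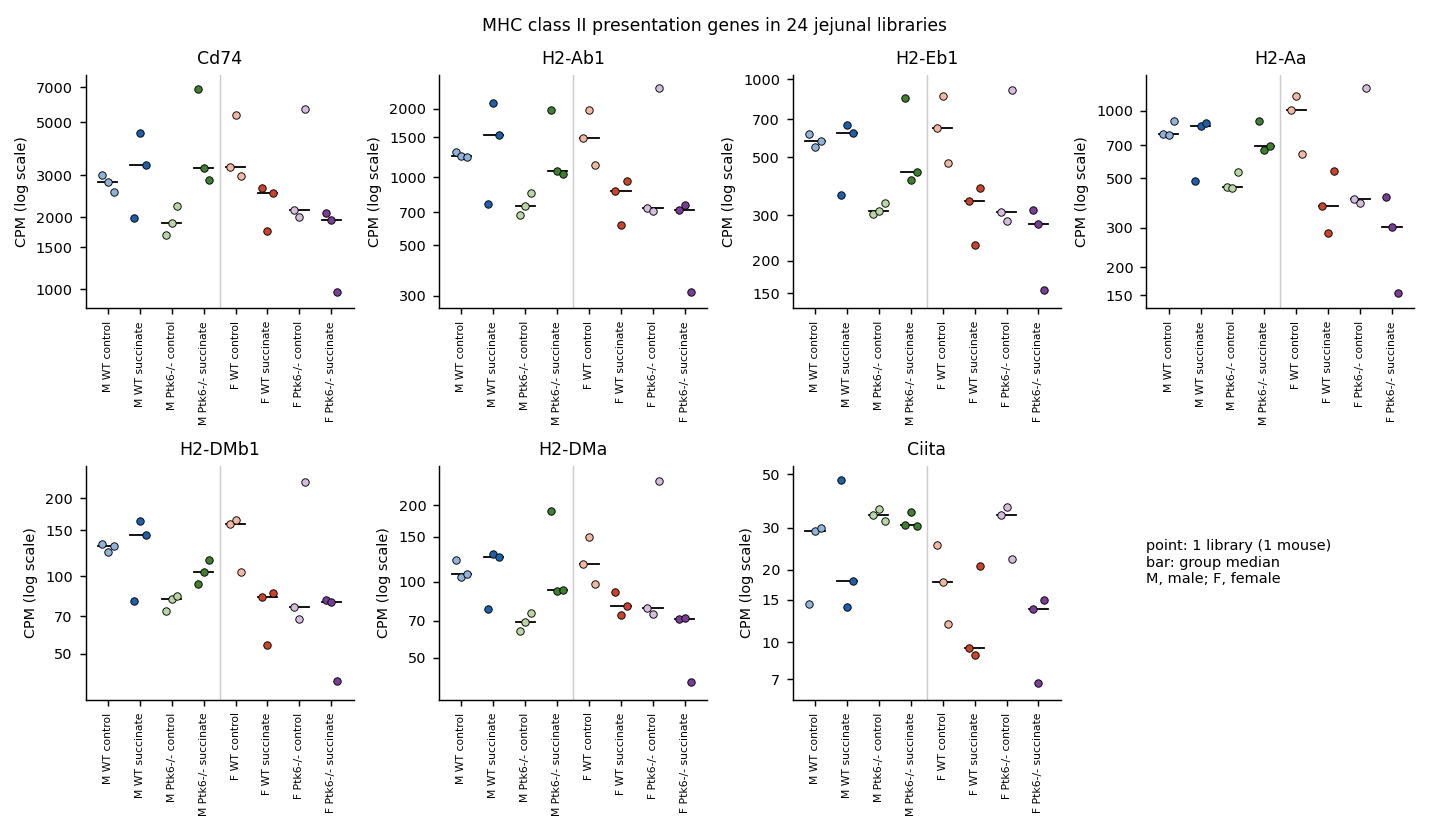
Level of each gene in CPM (log scale) in the 24 libraries, by group of sex (M, male; F, female), genotype and water; each point is 1 mouse and the bar is the group median. By median, H2-Aa, H2-Ab1 and H2-Eb1 are lowest in succinate-treated female Ptk6-/- mice, and Ciita is highest in male Ptk6-/- controls.

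Across the 24 libraries, 6 of the genes moved together and Ciita did not. Among the 15 pairs of genes without Ciita, Pearson's r of log2(CPM + 1) was 0.814 to 0.977, with a median of 0.938, and r of the deviations from group means was 0.795 to 0.974. For Ciita against each of the others, r was 0.0346 to 0.269 over all libraries and −0.447 to −0.201 for the deviations within groups. On FPKM the median r of Ciita with the others was 0.176, and its range within groups was −0.00469 to 0.288. These values describe libraries that share depth and composition, so they carry no test. Gene length also sets Ciita apart, at the 91.9 percentile of gene length, against 24.4 to 55.7 for the other 6, and the trend of level with gene length differed between libraries.

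Relative to H2-Aa in the same library, the FPKM of H2-Eb1 varied 1.62-fold over the 24 libraries, that of H2-Ab1 1.83-fold, H2-DMa 2.24-fold, H2-DMb1 2.53-fold and Cd74 2.69-fold. Ciita relative to H2-Aa varied 6.37-fold. H2-DMa relative to H2-Aa had a log2 ratio of −2.78 ± 0.201 (SD, n = 3) in female wild-type controls and −2.22 ± 0.0212 in female Ptk6-/- controls, and those 2 groups did not overlap. Nor did they for H2-Ab1 (1.28 ± 0.131 and 1.46 ± 0.0585) and H2-DMb1 (−1.52 ± 0.102 and −1.28 ± 0.0551), so that 3 of the 6 ratios were higher in Ptk6-/- without overlap (5.3% of all genes, each set against H2-Aa in the same way). Ciita relative to H2-Aa was −6.48 ± 0.560 in male wild-type controls and −5.14 ± 0.208 in male Ptk6-/- controls, the 1 of 6 ratios without overlap between those groups. H2-Aa itself was lower in male Ptk6-/- controls, and 67.1% of all genes had a higher ratio to it there without overlap.

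**Figure D2:**
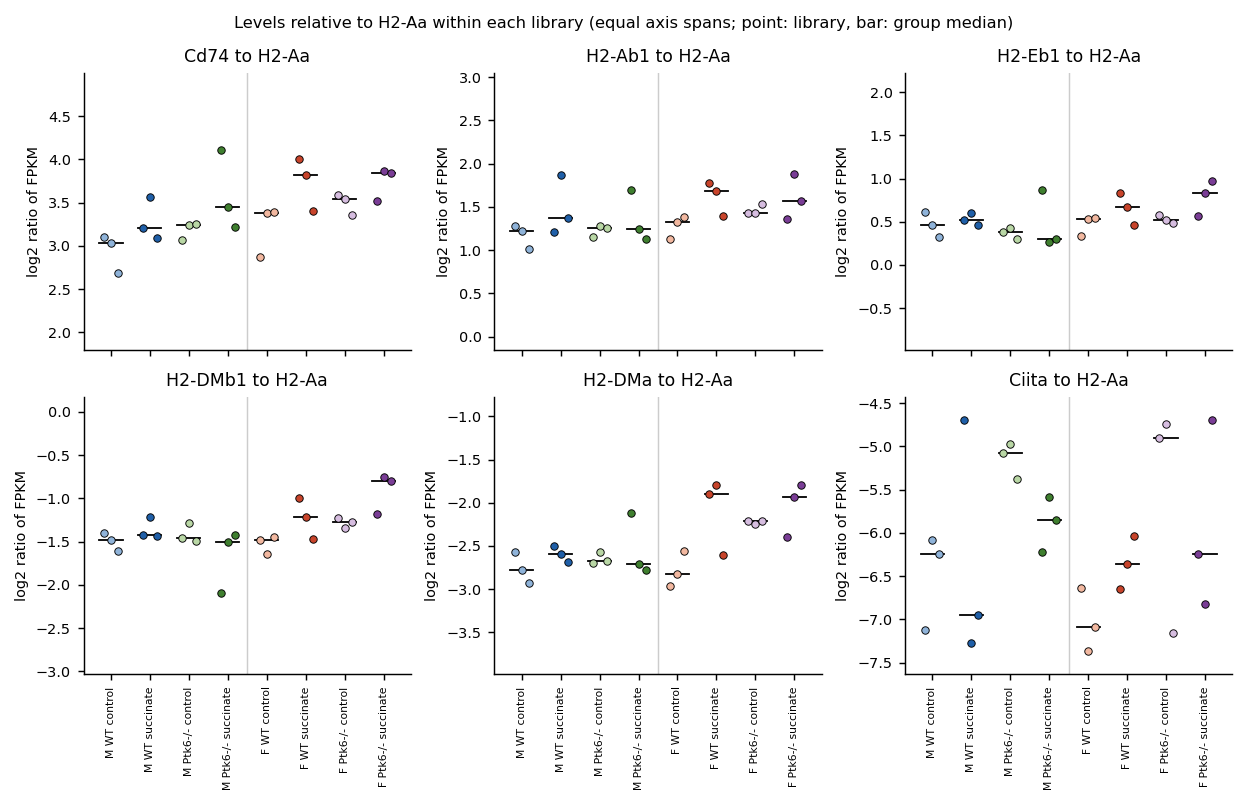
Log2 ratio of each gene's FPKM to that of H2-Aa in the same library, by group, on axes of equal span; each point is 1 mouse and the bar is the group median. The ratios of the chain genes H2-Ab1 and H2-Eb1 vary 1.83-fold and 1.62-fold, and that of Ciita 6.37-fold.

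The comparison of Ptk6-/- with wild-type mice on regular water asks what the loss of PTK6 changes without succinate. In control males, 6 of the 7 genes were lower in Ptk6-/- mice with no overlap between the groups, and Ciita was higher without overlap. None reached a fold change of 2, so 0 of 7 were called at an adjusted p below 0.05 with that fold, where 0.739% of 19218 genes tested were called. By adjusted p alone, 5 of 7 were lower (1.87% of all genes) in edgeR's quasi-likelihood test, and 6 of 7 had an unadjusted p below 0.05 (25.2% of all genes).

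H2-Aa measured 790, 782 and 897 CPM in male wild-type controls and 454, 451 and 530 CPM in male Ptk6-/- controls. Its partner chain H2-Ab1 measured 1295, 1235 and 1223 CPM in wild type and 680, 741 and 853 CPM in Ptk6-/-. H2-Eb1, the beta chain of I-E, measured 617, 550 and 576 CPM against 302, 311 and 335 CPM. All 3 Ptk6-/- libraries lay below all 3 wild-type libraries for each of these chains. The log2 fold change was −0.80 (SE 0.149, adjusted p = 0.0350) for H2-Aa, −0.74 (SE 0.168, adjusted p = 0.0488) for H2-Ab1 and −0.90 (SE 0.141, adjusted p = 0.0291) for H2-Eb1.

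The H2-DM chains and Cd74 differed in the same direction. H2-DMa measured 121, 104 and 107 CPM in male wild-type controls and 63.7, 69.1 and 75.3 CPM in male Ptk6-/- controls, and H2-DMb1 measured 133, 124 and 130 CPM against 73.3, 81.7 and 83.5 CPM. Their log2 fold changes were −0.70 (SE 0.131, adjusted p = 0.0355) and −0.72 (SE 0.113, adjusted p = 0.0296). Cd74 measured 3004, 2822 and 2545 CPM in wild type and 1686, 1885 and 2225 CPM in Ptk6-/-, with a log2 fold change of −0.55 (SE 0.207) that missed the threshold (adjusted p = 0.143). Again no Ptk6-/- library reached the lowest wild-type library.

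Ciita went the other way. It measured 14.5, 29.0 and 29.9 CPM in male wild-type controls and 33.8, 36.0 and 32.1 CPM in male Ptk6-/- controls, a log2 fold change of 0.46 (SE 0.225, adjusted p = 0.249). The groups did not overlap, and wild-type control 1, the library with much Rn18s, was the lowest. For comparison, 16.3% of all genes were lower and 16.4% higher without overlap between these groups.

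The 6 genes stayed lower in all 16 settings tried, where the median of the 7 ran from −0.75 to −0.27, but the adjusted p did not hold in all of them. Without wild-type control 2 or 3, or without Ptk6-/- control 2 or 3, 0 of 7 passed at an adjusted p of 0.05. Without wild-type control 1, 4 of 7 passed. Over all genes, 2 to 211 were called in the fits that left out 1 library, against 142 in the full fit. By DESeq2 the 6 lower genes all passed (15.7% of all genes did, in either direction), with adjusted p from 4.8e-10 for H2-Eb1 to 0.00471 for Cd74. The slope of level on gene length, both in log2, was −0.0603 to 0.00610 in male wild-type controls and 0.0831 to 0.121 in male Ptk6-/- controls, and with an offset for this trend 0 of 7 passed. T cell markers moved beside the 6 genes: 9 of 10 had lower estimates in Ptk6-/- males, their median was −0.55 on the log2 scale, and their summed level was 182 to 199 CPM in wild type and 115 to 146 CPM in Ptk6-/-. All 10 were detected in every library. Epithelial markers were lower for 7 of 10 genes, with a summed level of 19693 to 23763 CPM against 14530 to 20392 CPM. Enterocyte markers had the other direction, with 8 of 10 higher (median 0.34, 0 called), and their summed level overlapped, at 25005 to 25633 CPM against 18470 to 29307 CPM. B cell markers were lower for 7 of 10 (median −0.45), lymphoid follicle markers for 6 of 8 tested (median −0.51) and plasma cell markers for 5 of 6 (median −0.36), each with 0 called and with summed levels that overlapped between the genotypes. Dendritic cell markers were lower for 7 of 11 (median −0.06). Macrophage markers were higher for 8 of 12 (median 0.12), although C1qa, C1qb and C1qc were lower (−0.73, −0.43 and −0.64). The part of these cell types in the result was not tested. On FPKM the members' median was −0.27, where that of all genes was 0.25, against −0.72 and 0.02 on counts.

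In control females, 0 of 7 genes were called (0.0158% of all genes, which are 3 genes, 1 of them the lung gene Scgb1a1), 1 of 7 had an unadjusted p below 0.05 (11.1% of all genes) in edgeR, and the groups overlapped for all 7. H2-Aa measured 1002, 1162 and 639 CPM in female wild-type controls and 402, 388 and 1261 CPM in female Ptk6-/- controls. Ptk6-/- control 3 lay above every wild-type library, whereas the other two Ptk6-/- libraries lay below every wild-type library. The log2 fold change was −0.43 (SE 0.510) for H2-Aa, and the 6 genes other than Ciita lay between −0.43 and 0.16. Ciita measured 25.3, 17.7 and 11.9 CPM in wild type and 33.7, 36.5 and 22.2 CPM in Ptk6-/-, a log2 fold change of 0.79 (SE 0.336, edgeR adjusted p = 0.447). Here control 3 was the lowest Ptk6-/- library.

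Female Ptk6-/- control 3 carried much of these values for the other 6 genes. Among control females their highest levels were all its own, among them 2461 CPM for H2-Ab1 and 5704 CPM for Cd74, and its summed level of macrophage markers was 894 CPM, against 370 to 392 CPM in the other two Ptk6-/- controls. Without this library the members' median went from −0.21 to −0.93 and 2 of 7 were called in edgeR, H2-Aa at −1.19 (adjusted p = 0.0396) and H2-Eb1 at −1.11 (adjusted p = 0.0439). Over all genes 1808 were then called, against 3 with it. Across all fits that left out 1 library, however, the members' median ran from −0.93 to 0.08, so its direction turned. The highest estimates in those fits were 0.08 for H2-Ab1, 0.45 for H2-DMa, 0.13 for H2-DMb1 and 0.12 for Cd74. H2-Aa and H2-Eb1 stayed negative in each of them. Under succinate, Ptk6-/- and wild-type mice differed by log2 fold changes of −0.28 to 0.46 in males and −0.47 to −0.13 in females. In both sexes 0 of 7 were called (0% of all genes), and 0 of 7 had an unadjusted p below 0.05 (2.72% of all genes in males and 4.52% in females). The direction in males turned with the setting: on FPKM all 7 were lower in Ptk6-/- mice, with a median of −0.58, and with a length offset all 7 were higher, with a median of 0.43, against 0.10 on counts. Without treated Ptk6-/- male 1 the median was −0.27. H2-DMa was the 1 gene that was lower without overlap in treated females (4.34% of all genes).

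Succinate against regular water within each sex and genotype asks how the treatment bears on these genes. In females, all 7 genes were lower with succinate in both genotypes, and 0 of 7 were called in either. In wild-type females the groups did not overlap for 6 of 7 genes (6.66% of all genes were lower without overlap), and 4 of 7 had an unadjusted p below 0.05 (7.77% of all genes). In that comparison 0% of all genes were called, and the smallest adjusted p of the 7 was 0.617. Without treated female 3, 597 genes were called but still 0 of the 7, with an adjusted p of 0.0818 for H2-Aa.

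H2-Aa measured 1002, 1162 and 639 CPM in female wild-type controls and 374, 283 and 539 CPM with succinate, a log2 fold change of −1.21 (SE 0.391). H2-Ab1 measured 1487, 1967 and 1128 CPM against 863, 617 and 958 CPM, a log2 fold change of −0.89 (SE 0.372). H2-Eb1 measured 648, 861 and 475 CPM against 341, 231 and 380 CPM, a log2 fold change of −1.04 (SE 0.362). Each chain was lower in every treated female than in every control, and treated female 2, the library with heart muscle transcripts, was the lowest of the 3.

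The processing partners were lower too. H2-DMa measured 117, 149 and 98.2 CPM in female wild-type controls and 91.0, 74.0 and 80.4 CPM with succinate, a log2 fold change of −0.55 (SE 0.264). H2-DMb1 measured 159, 165 and 104 CPM against 83.1, 54.1 and 86.0 CPM, a log2 fold change of −0.92 (SE 0.312). Cd74 measured 3234, 5342 and 2961 CPM against 2656, 1758 and 2524 CPM, a log2 fold change of −0.72 (SE 0.414). In these 3 genes too, every treated library lay below every control. Ciita measured 25.3, 17.7 and 11.9 CPM in controls and 9.41, 8.81 and 20.8 CPM with succinate, and here the groups overlapped (−0.48, SE 0.431). Without treated female 2 the median of the 7 genes went from −0.89 to −0.72, and all 7 remained lower in each of the 16 settings.

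In Ptk6-/- females, Ciita had the largest difference of the 7 genes. It measured 33.7, 36.5 and 22.2 CPM in controls and 13.7, 6.77 and 15.0 CPM with succinate, with no overlap and a log2 fold change of −1.41 (SE 0.369, edgeR adjusted p = 0.339). It was 1 of 2 genes of the 7 that were lower without overlap (11% of all genes), the other being H2-DMa. H2-DMa measured 78.6, 74.3 and 248 CPM in controls and 71.2, 72.0 and 40.3 CPM with succinate, a log2 fold change of −1.16 (SE 0.519). In this comparison 0.0879% of all genes were called, all of them higher with succinate, and 1 of 7, Ciita, had an unadjusted p below 0.05 (10.7% of all genes).

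For the others, control 3 stood above and treated female 3 below the rest. H2-Aa measured 402, 388 and 1261 CPM in Ptk6-/- controls and 414, 304 and 154 CPM with succinate, and H2-Ab1 measured 729, 708 and 2461 CPM against 718, 755 and 310 CPM. H2-Eb1 measured 307, 285 and 906 CPM against 313, 277 and 154 CPM. H2-DMb1 measured 75.9, 68.0 and 232 CPM against 80.6, 79.4 and 39.1 CPM, and Cd74 measured 2138, 2001 and 5704 CPM against 2087, 1951 and 976 CPM. For these 5 genes controls 1 and 2 lay within the range of the treated libraries, apart from Cd74 in control 1. The log2 fold changes were −1.27 (SE 0.580) for H2-Aa, −1.16 (SE 0.606) for H2-Ab1, −1.04 (SE 0.529) for H2-Eb1, −0.94 (SE 0.533) for H2-DMb1 and −1.001 (SE 0.550) for Cd74. Without control 3 the median of the 7 genes went from −1.16 to −0.34, while Ciita stood at −1.60. By DESeq2 Ciita was called in this comparison, at a log2 fold change of −1.39 (adjusted p = 0.0399), as were 433 genes in all (2.24% of all genes).

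In wild-type males, succinate left the 7 genes between log2 fold changes of −0.16 and 0.22, with 0 of 7 called and 0 of 7 at an unadjusted p below 0.05 (0% and 4.07% of all genes). H2-Aa measured 486, 858 and 881 CPM with succinate, H2-Ab1 measured 761, 2126 and 1538 CPM and Cd74 measured 1989, 4503 and 3318 CPM. H2-Eb1 measured 358, 666 and 619 CPM, H2-DMa 77.8, 129 and 125 CPM and H2-DMb1 80.4, 163 and 144 CPM. Treated male 1 was the lowest in all 6 of these genes, and the groups overlapped for each. Ciita measured 47.2, 14.0 and 18.0 CPM, so that treated male 1 had the highest Ciita level of the 24 libraries.

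In Ptk6-/- males, 6 of the 7 genes were higher with succinate in CPM and did not overlap with their controls (11.4% of all genes were higher without overlap). H2-Aa measured 902, 664 and 699 CPM with succinate, against 451 to 530 CPM in controls. Cd74 measured 6884, 3199 and 2869 CPM, against 1686 to 2225 CPM in controls, and H2-Ab1 measured 1981, 1060 and 1033 CPM, against 680 to 853 CPM. Treated male 1, the smallest library, was highest for each of these 3 genes, and the other two treated males also lay above all controls.

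H2-Eb1 measured 843, 409 and 441 CPM in treated Ptk6-/- males, against 302 to 335 CPM in controls. The H2-DM chains measured 189, 92.0 and 92.6 CPM for H2-DMa, against 63.7 to 75.3 CPM, and 93.5, 103 and 115 CPM for H2-DMb1, against 73.3 to 83.5 CPM. H2-DMb1 was the gene of the 6 in which treated male 1 was lowest. Ciita measured 30.7, 34.7 and 30.4 CPM and overlapped with its controls at 32.1 to 36.0 CPM (−0.06, SE 0.182). The log2 fold changes of the other 6 ran from 0.42 (SE 0.181) for H2-DMb1 to 1.23 (SE 0.484) for Cd74. None was called in edgeR (0% of all genes), with an adjusted p of 0.600 for each of the 6, and 5 of 7 had an unadjusted p below 0.05 (7.75% of all genes). Heart muscle markers were higher there too, for 7 of 7 genes tested (median 2.04), at 44.9 to 233 CPM in sum against 16.0 to 37.0 CPM. Their part in the result was not tested.

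Treated Ptk6-/- male 1 carried much of this difference. Without it the members' median went from 0.90 to 0.43 on the log2 scale. On the FPKM values, where the median of all genes shifted by −0.45, the members' median was 0.07, and H2-Aa (−0.0417) and H2-DMb1 (−0.29) were lower instead of higher.

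The succinate effect in females minus that in males, over both genotypes and all 24 libraries, was negative for all 7 genes. The log2 difference was −1.49 (SE 0.421) for H2-Aa, −1.56 (SE 0.464) for H2-Ab1, −1.41 (SE 0.410) for H2-Eb1, −1.27 (SE 0.384) for H2-DMa, −1.12 (SE 0.383) for H2-DMb1, −1.55 (SE 0.448) for Cd74 and −0.95 (SE 0.430) for Ciita. All 7 had an unadjusted p below 0.05 in edgeR (8.27% of all genes), from 0.00202 for H2-Aa to 0.0388 for Ciita. After adjustment over 21694 genes the p was 0.226 to 0.564, so 0 of 7 were called (0.0738% of all genes). By DESeq2, 2 of 7 were called, H2-Aa at −1.49 (adjusted p = 0.0399) and Cd74 at −1.56 (adjusted p = 0.0386), among 207 genes in all (0.954% of all genes). All 7 stayed negative in 33 of 33 settings, with a median of −1.55 to −0.996. The median was −1.04 without female Ptk6-/- control 3 and −1.13 without the 3 libraries with much Rn18s or heart muscle transcripts.

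None of the remaining averages and interactions called any of the 7 genes in edgeR. Averaged over sex and genotype, succinate gave log2 fold changes of −0.49 to −0.08 (2 of 7 at an unadjusted p below 0.05, 16.1% of all genes, of which 0.728% were called). Averaged over sex and treatment, Ptk6-/- against wild type gave −0.42 to 0.34 (0 of 7 at an unadjusted p below 0.05, 13.4% of all genes, with 0.0184% called), Ciita being the only positive value. Females against males gave −0.76 to −0.09 (1 of 7 at an unadjusted p below 0.05, 15.3% of all genes, with 0.36% called). Ciita was the lowest there, at −0.76 (SE 0.216, edgeR adjusted p = 0.121). The succinate effect in Ptk6-/- minus that in wild type was −0.15 to 1.01 in males (1 of 7 at an unadjusted p below 0.05, 3.8% of all genes) and −0.91 to 0.04 in females (0 of 7, 6.46% of all genes). The female value minus the male value was −1.40 to −0.37 (0 of 7, 5.99% of all genes). In these 3 interactions 0% of all genes were called, and their directions turned with the setting. On log2(FPKM + 1) all 7 values were negative in males (median −0.26, against 0.86 on counts) and all 7 female minus male values were positive (median 0.48, against −0.82). In females the median was −0.23 on counts, 0.07 on log2(FPKM + 1) and 0.59 without Ptk6-/- control 3.

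**Figure D3:**
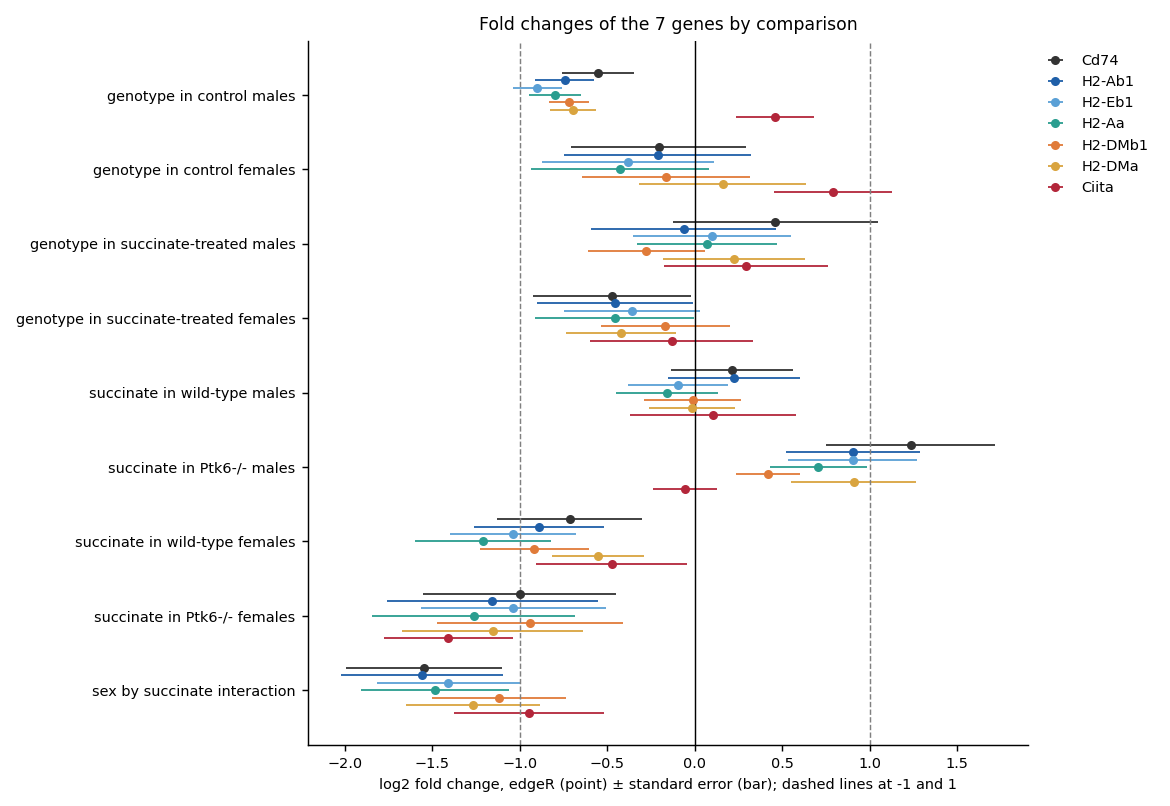
Log2 fold change of each gene (point) with its standard error from edgeR (bar) in the 8 comparisons of 2 groups and in the interaction of sex and succinate; genotype is Ptk6-/- minus wild type, succinate is treated minus control, and the interaction is females minus males. Only Ciita lies above 0 in control males, all 7 lie below 0 with succinate in both female comparisons, and all 7 are negative in the interaction, between −1.56 and −0.95.

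The 5 other class II genes of the region that were listed (H2-DMb2, H2-Oa, H2-Ob, H2-Eb2 and H2-Ea) were less abundant than the 7 described, Ciita apart. H2-Oa and H2-Ob encode H2-O, an inhibitor of H2-DM found mainly in B cells, and H2-DMb2 is the second DM beta chain gene. H2-Ea, the alpha chain of I-E that mice of the H-2b type lack, had no count in 22 of 24 libraries. Of the 5 genes, 4 could be tested and none was called in any comparison by edgeR with all libraries. DESeq2 called H2-Ob between the genotypes in treated males (−2.35, adjusted p = 6.8e-05) and H2-Oa in control females (1.24, adjusted p = 0.0330), and without female Ptk6-/- control 3 edgeR called H2-Oa (1.28) and H2-Ob (1.93) in control females. The smallest p values were those of H2-Ob (−2.36, SE 0.400, adjusted p = 0.382) and H2-DMb2 (−1.28, SE 0.320, adjusted p = 1.00), both lower in treated Ptk6-/- than in treated wild-type males. H2-Ob measured 12.9, 10.7 and 12.3 CPM in treated wild-type males and 2.47, 1.51 and 2.95 CPM in treated Ptk6-/- males. B cell markers had summed levels of 134 to 155 CPM in the former and 21.0 to 50.5 CPM in the latter, where 7 to 10 of 10 were detected. In control females 10 of 10 were higher in Ptk6-/- mice (median 2.25), at 35.0 to 97.6 CPM in sum against 16.7 to 33.7 CPM in wild type. Their part in these differences was not tested.

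None of the 7 promoter factors tested (Rfx5, Rfxap, Rfxank, Nfya, Nfyb, Nfyc and Creb1) was called in any comparison by edgeR. Their summed level ran from 159 to 213 CPM over all libraries. Rfx5 and Nfya, subunits of RFX and NF-Y, had the smallest p values, at 0.50 (SE 0.148, adjusted p = 0.0866) and 0.50 (SE 0.175, adjusted p = 0.123) in control males, and both estimates were higher in Ptk6-/-. Among 10 genes of class II processing and turnover, none was called by edgeR in any comparison. Cd83, which protects class II from ubiquitin-driven turnover, stood at −2.01 (SE 0.396, adjusted p = 0.680) between the genotypes in treated males, where DESeq2 called it (adjusted p = 0.00225), as it did for succinate in wild-type males (1.13, adjusted p = 0.0169). Ctsl, a lysosomal protease, stood at −0.70 (SE 0.204, adjusted p = 0.367) in control females.

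Interferon gamma induces Ciita and the class II genes, and its signalling genes and targets were described next. Of 9 signalling genes none was called by edgeR in any comparison. Ifng itself had no count in 5 of 24 libraries and at most 45 counts. With succinate in Ptk6-/- males it stood at 2.96 (SE 1.08, edgeR adjusted p = 0.600), from 0, 2 and 10 counts in controls and 3, 19 and 31 counts with succinate. In control males it stood at −1.40 (SE 1.12, adjusted p = 0.488) in Ptk6-/- mice, and in 2 comparisons it was too low to be tested. The receptor-bound kinase gene Jak1 was higher in control Ptk6-/- males by 0.54 (SE 0.102, adjusted p = 0.0356), short of a fold change of 2. Over the other settings the estimate for Jak1 was 0.33 to 0.97 and the adjusted p reached 0.930, and it did not pass without wild-type control 2 or 3 or without Ptk6-/- control 2 or 3. Irf2 stood at 0.65 (SE 0.169, adjusted p = 0.0630) in the same comparison.

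Of 20 interferon gamma targets, 1 was called by edgeR. Another, the guanylate-binding protein gene Gbp6, was at −2.35 (SE 0.370, edgeR adjusted p = 0.127) with succinate in Ptk6-/- females and was called there by DESeq2 (adjusted p = 3.5e-06). Ubd, the ubiquitin-like protein FAT10, measured 37.9, 90.6 and 13.2 CPM in wild-type female controls and 1.32, 1.49 and 5.87 CPM with succinate. In Ptk6-/- females it measured 34.0, 23.8 and 27.3 CPM in controls and 2.90, 0.217 and 2.07 CPM with succinate. Every treated female lay below every control female of its genotype.

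In males the Ubd groups lay apart in opposite directions in wild type and Ptk6-/-. Wild-type males measured 48.0, 34.7 and 32.4 CPM in controls and 14.2, 19.2 and 8.05 CPM with succinate, lower without overlap (no share of all genes is given). Ptk6-/- males measured 18.6, 6.73 and 15.7 CPM in controls and 62.2, 72.9 and 23.6 CPM with succinate, higher without overlap. The edgeR interaction of genotype and succinate in males, however, called 0 of the 20 interferon gamma targets (smallest adjusted p = 0.651). Averaged over sex and genotype Ubd fell by 1.895 on the log2 scale (SE 0.366, edgeR adjusted p = 0.0108), a call lost without the 3 libraries with much Rn18s or heart muscle transcripts (adjusted p = 0.0714). The succinate effect in females minus that in males was −4.27 (SE 0.737, edgeR adjusted p = 0.0383), and this call was lost in 18 of 24 fits that left out 1 library (−4.79 to −3.82, adjusted p 0.00391 to 0.102).

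In the same comparison of succinate effects between the sexes, 18 of 20 interferon gamma targets were negative, with a median of −0.67 (0.01 over all genes). Of the 20, 7 had an unadjusted p below 0.05 in edgeR. The share of all genes that did is given above with the members. With succinate the median was −0.89 in wild-type females (17 of 20 negative) and −1.08 in Ptk6-/- females (18 of 20 negative). Most targets were negative in wild-type males too (17 of 20, median −0.34), while in Ptk6-/- males 12 of 20 were (median −0.03). In control males 14 of 20 were lower in Ptk6-/- mice, with a median of −0.22. The immunoproteasome genes Psmb8 (−0.85, SE 0.124, adjusted p = 0.0262) and Psmb9 (−0.54, SE 0.114, adjusted p = 0.0418), which serve MHC class I and lie in the class II region, were the 2 of them that passed by adjusted p alone, and were named after their values were seen. Neither passed without wild-type control 2 or 3 or without Ptk6-/- control 2 or 3, and over all settings the adjusted p reached 0.930 for Psmb8 and 0.954 for Psmb9, whose estimate fell to −0.0991 with limma on log2(FPKM + 0.1).

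T cell markers had the direction of most of the 7 genes in females and in Ptk6-/- males. With succinate, 10 of 10 T cell markers were negative in wild-type females (median −0.84) and in Ptk6-/- females (median −1.02). The effect in females minus that in males was negative for 10 of 10 (median −1.22, against 0.01 over all genes). Of these markers 7 had an unadjusted p below 0.05, a share to be read beside that of all genes given above, and 0 were called. Their summed level was 145 to 295 CPM in female wild-type controls and 59.6 to 121 CPM with succinate, and 106 to 252 CPM in female Ptk6-/- controls and 54.9 to 115 CPM with succinate. All 10 were detected in each of these libraries. In Ptk6-/- males 8 of 10 were positive with succinate (median 0.37), and their summed level was 115 to 146 CPM in controls and 186 to 251 CPM with succinate, without overlap. Epithelial markers there summed to 14530 to 20392 CPM in controls and 20987 to 23177 CPM with succinate, with 6 of 10 positive (median 0.30). Interferon gamma targets summed to 539 to 636 CPM and 721 to 789 CPM, though 8 of 20 were positive (median −0.03). Enterocyte markers were positive for 3 of 10 (median −0.22). Epithelial markers were negative for 8 of 10 genes in both female comparisons, with summed levels of 28710 to 31443 CPM in wild-type controls and 10242 to 20610 CPM with succinate, and of 15100 to 29226 CPM in Ptk6-/- controls and 11432 to 14970 CPM with succinate. Enterocyte markers were negative for 8 of 10 in wild-type females (median −0.59), where the summed levels of 37349 to 39709 CPM in controls and 26039 to 34403 CPM with succinate did not overlap. They were negative for 7 of 10 in Ptk6-/- females (median −0.66, 18527 to 44410 CPM against 17094 to 18129 CPM, again without overlap) and for 8 of 10 in the difference between the sexes (median −0.26). Smooth muscle markers had the other direction, with 7 of 8 positive in wild-type females (median 0.60) and 6 of 8 in Ptk6-/- females (median 0.51), and a summed level of 3760 to 4713 CPM in wild-type controls and 4658 to 8239 CPM with succinate. In Ptk6-/- females it was 2651 to 5489 CPM and 4286 to 5601 CPM. The part of these cell types in the results was not tested.

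Markers of B cells, dendritic cells and macrophages were mixed beside the 7 genes. B cell markers were positive for 10 of 10 genes with succinate in wild-type females (median 2.07), where the 7 genes were lower, and for 10 of 10 in wild-type males (median 1.38), where the 7 genes were near 0. In Ptk6-/- males they had a median of −0.81, where 6 of the 7 genes were higher, and in Ptk6-/- females −0.39. Of 11 dendritic cell markers 6 were negative with succinate in wild-type females and 8 in Ptk6-/- females, and their summed level was 136 to 213 CPM in wild-type female controls and 93.5 to 160 CPM with succinate. In Ptk6-/- females it was 192 to 250 CPM in controls and 113 to 149 CPM with succinate. Of 12 macrophage markers 3 were negative in wild-type females and 6 in Ptk6-/- females. The part of each cell type in the levels of the 7 genes was not tested.

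**Figure D4:**
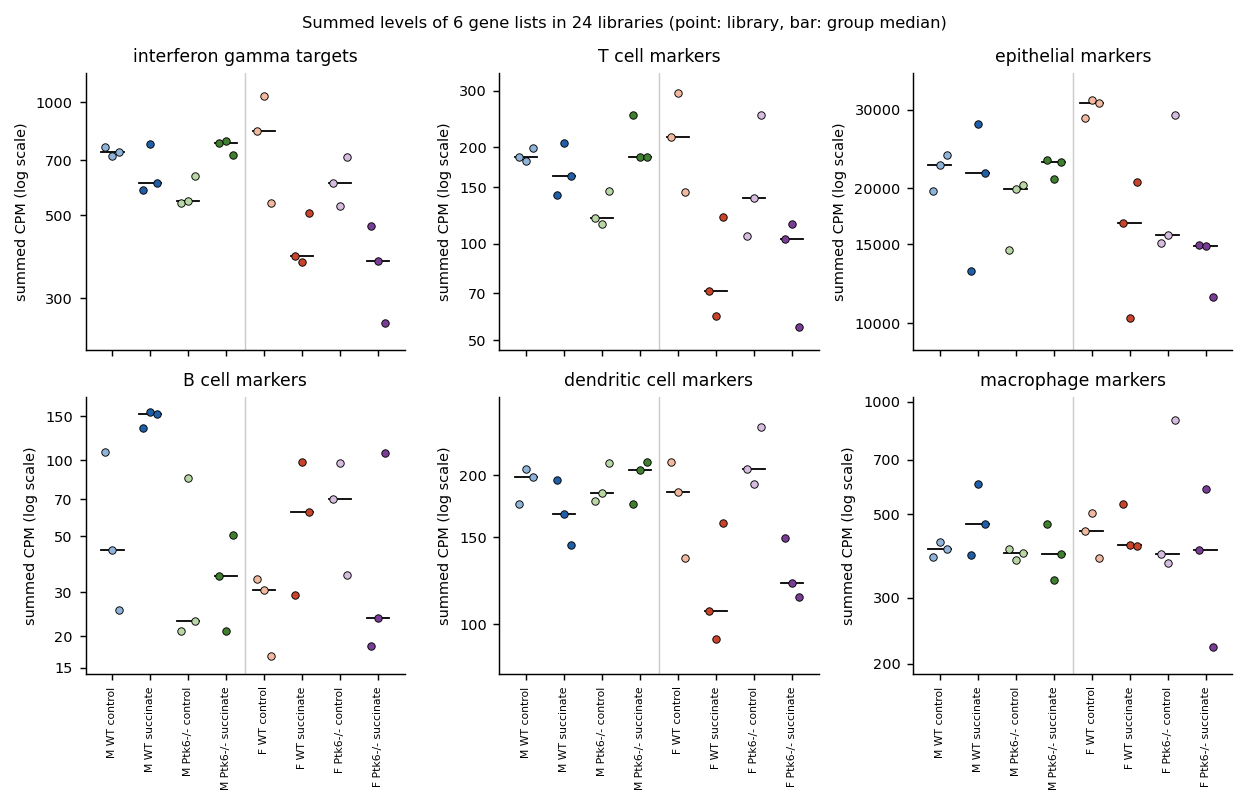
Summed CPM (log scale) of 6 gene lists in the 24 libraries, by group; each point is 1 mouse and the bar is the group median. Interferon gamma targets and T cell markers have their lowest group medians in succinate-treated females, and B cell markers are highest in succinate-treated wild-type males, at 134 to 155 CPM.

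The named genes most like the mean of the 7 across the 24 libraries, by Pearson's r with their mean z-score of log2(CPM + 1), were Tnfaip8l2 (0.939), Zg16 (0.928), Psmb9 (0.927), Ccl5 (0.923), Nkg7 (0.910) and Tapbp (0.909). Tnfaip8l2 restrains immune receptor signalling, Zg16 is a lectin of goblet cell mucus, Ccl5 and Nkg7 are known from cytotoxic lymphocytes, and Tapbp, tapasin, loads peptide on MHC class I. Ciita ranked 3639 of 15526 genes by the same measure, although it was part of the mean.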

How the data were processed

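The authors sequenced stranded poly(A) RNA of 24 jejunums, trimmed reads with Cutadapt, mapped them with HISAT2 and assembled transcripts with StringTie on GRCm39. The deposited count values are whole reads per gene with no normalization; the counting program is not given in the sources used here. For the FPKM values the authors used ballgown on the StringTie output. No column was left unmapped (0), and the authors' own fold changes were not used.

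Counts were tested in R 4.3.3 with edgeR 4.0.16 (quasi-likelihood test, TMM, a minimum of 10 counts in 3 or more libraries), on 6 libraries for 2 groups, 12 for the interaction of genotype and succinate within a sex and 24 for averages and other interactions. P values were adjusted by Benjamini-Hochberg over all genes tested, and a call needed an adjusted p below 0.05 and a fold change of at least 2. The test was checked on simulated data, and the outcome of that check is not given here. Alternatives used DESeq2 1.42.0, limma 3.58.1 on log2(FPKM + 1) or log2(FPKM + 0.1) where a gene's mean FPKM reached 0.5, other filters and offsets, a replicate block, and fits without single libraries.

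The 7 members and all lists were chosen with earlier results of these data known. From the other class II lists, genes called in a comparison were named (up to 4 a list), or else the 2 with the smallest p, and the 6 most alike genes needed a mean of at least 1 CPM and a symbol that is not a Gm or Rik name. P values set each difference against the spread between mice of the same group, with 3 mice in each full group.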

Additional observations from a re-analysis of the deposited data

Results flagged for a closer look

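Ubd stood out because its response to succinate differed between the sexes by a test of the difference itself. The effect in females minus that in males was −4.27 on the log2 scale (SE 0.737, edgeR adjusted p = 0.0383), and leaving out single libraries moved the adjusted p between 0.00391 and 0.102. H2-DMa was noted because its groups lay apart in opposite directions in Ptk6-/- mice: all 3 treated males were above all 3 control males (log2 fold change 0.91), and all 3 treated females were below all 3 control females (−1.16). Without treated male 1 the value in males was 0.387, on log2(FPKM + 1) it was 0.0654, and without control female 3 the value in females was −0.351. The difference between these 2 effects within Ptk6-/- mice was not tested. Such separation is not particular to H2-DMa. Ubd lay apart in the same 2 directions in Ptk6-/- mice, and the share of all genes without overlap is given above for each comparison. No share for both at once is given.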

How the results depend on the processing

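Each result was recomputed under other settings. In Ptk6-/- males, succinate gave Ciita 0.32 with a length offset and 0.30 with that offset and a replicate block, against −0.06, and −0.48 and −0.74 with limma on log2(FPKM + 1) and log2(FPKM + 0.1), and −0.106 to 0.0158 when single libraries were left out. In the same comparison limma on log2(FPKM + 1) and log2(FPKM + 0.1) gave −0.0417 and −0.0433 for H2-Aa and −0.29 and −0.31 for H2-DMb1, and in control males log2(FPKM + 0.1) gave 0.0043 for Rfxap. DESeq2 called 1 member among 433 genes for succinate in Ptk6-/- females and 2 among 207 for the interaction of sex and succinate (edgeR 0 among 17 and 0 among 16). In control males 5 members passed without the fold threshold, and 6 by adjusted p in DESeq2 against 5 in edgeR. On FPKM the members' median changed sign for genotype in treated males, for succinate in wild-type males (−0.0125 on counts and 0.31 on log2(FPKM + 1)) and for the interactions of genotype and succinate, with or without sex. For genotype in control females, 0 to 2 members were called when single libraries were left out. No other setting called a member. The median r of Ciita with the other members was 0.176 on FPKM and −0.0311 without the 3 libraries with much Rn18s or heart muscle transcripts. The causes were not tested. Counts over all genes moved too: in control males 142 genes were called, but 1 with all 24 libraries in 1 fit, 5 with the replicate block, 48 with the length offset, 311 by DESeq2 and 813 with no fold threshold. Succinate called 0 genes in wild-type males but 1077 without treated male 1, and 0 in wild-type females but 597 without treated female 3. Genotype called 3 in control females but 1808 without Ptk6-/- control 3. Replicate numbers did not pair the libraries (correlations of −0.586 to 0.453, and 0 of 8 comparisons with all above 0.1). With the replicate block 0 members passed by adjusted p in control males, as with limma on FPKM and with all 24 libraries in 1 fit, and 0 genes were called for succinate in Ptk6-/- females (17 without it) and for the interaction of sex and succinate (16 without it). In that interaction the block gave −4.26 for Ubd, with an adjusted p of 0.0678. Depth limits the precision of Ifng, while the lowest count of a member was 112.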
